A study of Arabidopsis thaliana with 2 samples.

Results

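COR47 and AT1G54410 are 2 genes of Arabidopsis thaliana that encode dehydrins, and their signals were followed in sap of leaf trichomes and of leaf pavement cells. They were chosen by name, and selected on their deposited log2 signals on both arrays and the ranks these give, from 13356 genes that had a probe set paired with 1 gene alone. The levels and ranks below are therefore a description of the 2 genes and carry no test. Each of the genes was read by 1 probe set, and both probe sets are of the type designed to match a single transcript.

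Dehydrins are hydrophilic, largely unfolded proteins of the late embryogenesis abundant (LEA) class. They carry lysine-rich K-segments that fold into helices on membrane surfaces, and many of their genes are induced by cold, drought or abscisic acid. COR47, also called RD17, is an acidic dehydrin best known as a cold-induced target of the CBF transcription factors. AT1G54410, also called HIRD11, is a small histidine-rich dehydrin that binds metal ions and is expressed in many tissues of unstressed plants. Trichomes are the branched single-celled hairs of the leaf surface, and pavement cells are the lobed cells that make up most of the leaf epidermis.

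The study held 1 array of trichome cells and 1 array of pavement cells, both from leaves of 5-week-old plants of the genotype Columbia-0. No stress treatment is named for either group; all plants were grown at 20 and 18 °C with 16 h of light and 8 h of darkness. Sap was taken from the cells with microcapillaries, and its RNA went through 1 round of amplification before labelling; how many cells or plants were pooled is not given in the sources used here. With 1 array in each group, no value below has a replicate error and none was tested; precision is limited by the number of arrays. In such bulk samples, fewer cells of a type and less RNA per cell cannot be told apart.

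Both dehydrin transcripts were among the brightest on both arrays. AT1G54410 read 8.77 in trichome sap and 11.77 in pavement sap on the log2 scale. COR47 read 6.35 in trichome sap and 10.43 in pavement sap. A background ceiling was set at 2.58, the top reading of the 27 control probe sets for transcripts of Bacillus subtilis, and all 4 readings were well above it. AT1G54410 stood above it by 6.19 in trichome and 9.19 in pavement, and COR47 by 3.77 and 7.85. For comparison, this ceiling was passed by 12.2% of all genes in trichome, by 15.9% in pavement and by 8.53% in both.

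**Figure D1:**
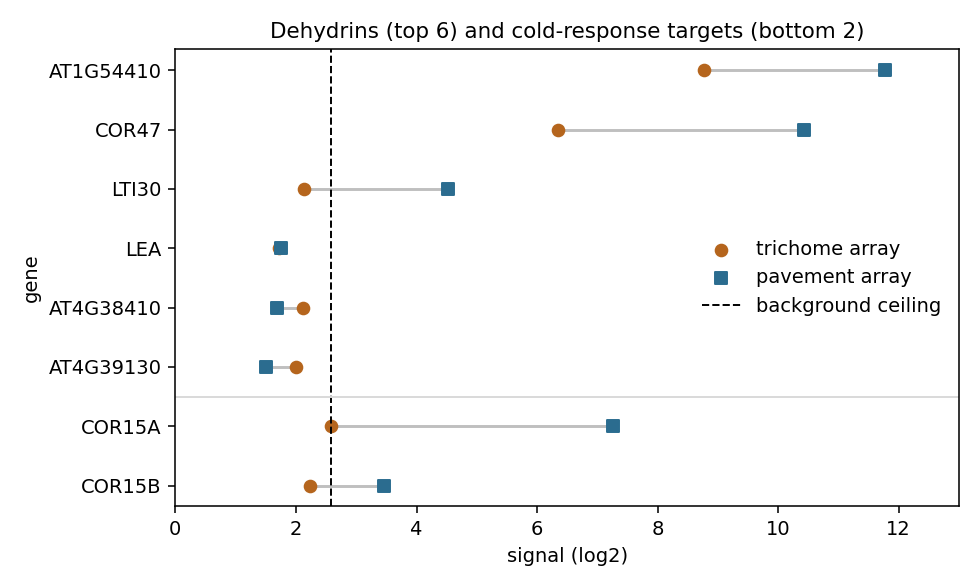
Signal (log2) of the 6 dehydrins with a probe set of their own and of COR15A and COR15B on the trichome array (circles) and the pavement array (squares); the dashed line is the background ceiling of 2.58. AT1G54410 and COR47 lie to the right of the ceiling on both arrays, LTI30 and both COR15 genes only on the pavement array. The gene shown as LEA is AT2G21490.

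By rank, AT1G54410 was the 3rd brightest of 13356 genes on the trichome array and the 6th on the pavement array. COR47 was 19th in trichome and 18th in pavement. The share of genes reading as high or higher was 0.0225% in trichome and 0.0449% in pavement for AT1G54410, and 0.142% and 0.135% for COR47. A rank orders probe set readings, which depend on the probes as well as on the transcript, so it does not order amounts of RNA between genes. It does not depend on the scale between the arrays, and by that measure each gene held nearly the same place in both saps.

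Many of the genes around them were encoded in the plastid. When genes not placed on a nuclear chromosome were left out, AT1G54410 was 2nd of 13217 genes in trichome and 3rd in pavement, and COR47 was 14th and 9th. When all 22746 plant probe sets were ranked, including those with no gene or several genes listed, AT1G54410 was 5th and 13th, and COR47 was 50th and 42nd.

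**Figure D2:**
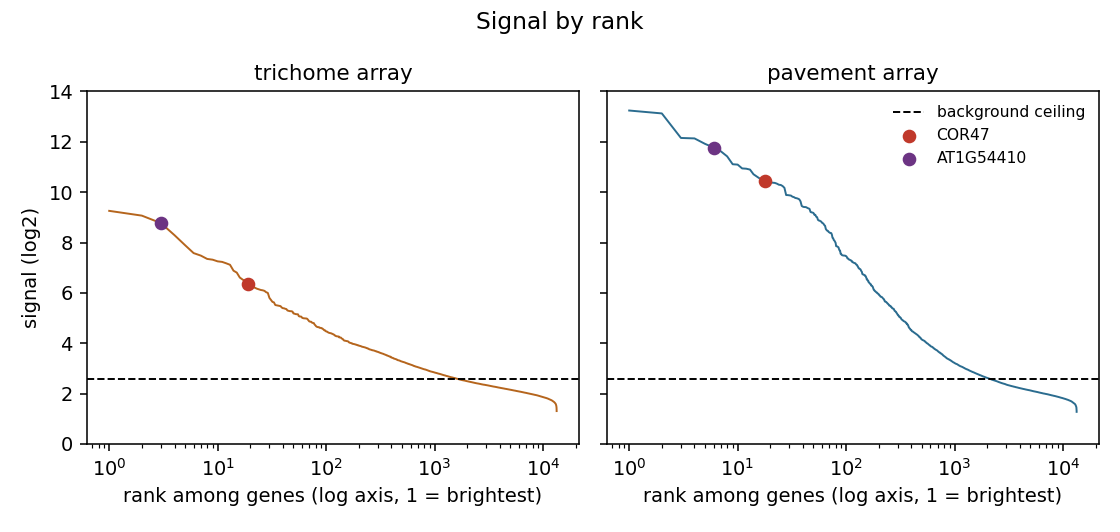
Signal (log2) of all 13356 genes against their rank (log axis, 1 is the brightest) on each array, with AT1G54410 and COR47 marked; the dashed line is the background ceiling of 2.58. The trichome curve starts lower and is flatter, and both genes sit at its bright end as they do on the pavement array, at ranks 3 and 19 against 6 and 18.

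The genes next to them in rank differed between the arrays. On the trichome array AT1G54410 stood between atpE, the epsilon subunit of the plastid ATP synthase (9.07), and AT3G31955 (8.29). On the pavement array it stood between ndhC, a subunit of the plastid NDH complex (11.92), and UBC28, a ubiquitin-conjugating enzyme (11.62). COR47 lay between psbM of photosystem II (6.47) and AT1G53210 (6.30) on the trichome array. On the pavement array COR47 lay between AT3G22240 (10.49) and AT4G21620 (10.42). The gap between COR47 and its neighbours was thus small on both arrays.

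AT1G54410 and COR47 belonged to a group of genes that were near the top of both arrays. Of the 20 brightest genes on each array, a number chosen after the ranks were seen, 12 were shared (60% of each list), of which 5 were plastid genes and 7 nuclear. The nuclear genes were AT1G54410, COR47, UBC28, AT5G39570, AT3G22240, AT1G52300 (a ribosomal protein of the large subunit) and PSBW (a small subunit of photosystem II). Within this group of 7 the difference between the arrays, trichome minus pavement on the log2 scale, ran from -5.25 for PSBW to -3.00 for AT1G54410. AT1G54410 had the smallest difference of the group and COR47 the 4th smallest.

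As deposited, both dehydrin genes read higher in pavement sap. The difference of COR47, trichome minus pavement, was -4.08, a 16.9-fold higher signal in pavement. That of AT1G54410 was -3.00, or 8.01-fold. Of the 8168 genes at or above a floor of 2.05, the median of all values, 8.31% were higher in pavement by 2-fold or more, and 1.19% in trichome. Genes higher in trichome were 12.5% of these calls, a share that was 46.5% after quantile normalization of the arrays and 98.9% after centring on the hybridisation controls. That centring adds 3.15 to the difference of every gene, so the calls behind the 98.9% include many genes at background. Among the 1139 genes that passed the ceiling in both saps, 31% were higher in pavement by 2-fold or more as deposited, and 2.02% in trichome. COR47 and AT1G54410 were chosen with this contrast known, so their place in it supports nothing. The median difference was 0.02 over all 13356 genes and -0.37 over the 1139.

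**Figure D3:**
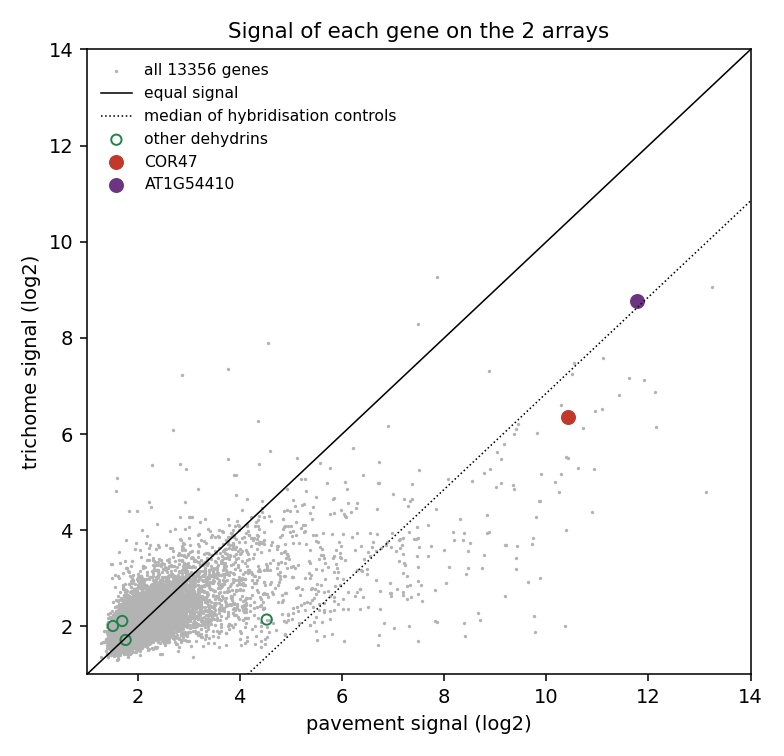
Trichome signal against pavement signal (both log2) of 13356 genes; COR47, AT1G54410 and the 4 other measured dehydrins are marked. AT1G54410 lies close to the dotted line, the median difference of the hybridisation controls (-3.15), COR47 lies below it by 0.93, and 3 of the other dehydrins are within the cloud at background.

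The scale between the arrays was read from 18 hybridisation control probe sets, for bacterial and phage transcripts that the usual procedure adds to the labelled sample, in amounts not given in the sources used here. Each of the 18 was dimmer in trichome, with differences from -3.54 to -1.94 and a median of -3.15. The difference of COR47, -4.08, was below those of all 18. The difference of AT1G54410, -3.00, lay inside their range, with 12 controls below it and 6 above it. Relative to the control median, COR47 was at -0.93 and AT1G54410 at 0.15.

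On the pavement array there were controls of like brightness for both genes; on the trichome array COR47, at 6.35, was below the dimmest control, at 6.88. Within 1 log2 unit of COR47 on the pavement array there were 7 controls, with a median difference of -3.20 and a range from -3.54 to -3.03. Within 1 unit of AT1G54410 there were 8 controls, with a median of -3.22 and a range from -3.54 to -2.89. Against controls of like brightness in pavement, AT1G54410 did not stand apart, and COR47 was lower in trichome than all 7. Where a gene had several probe sets, their differences had a pooled SD of 0.95 (36 genes with signal). A gene entered when any of its probe sets passed the ceiling on either array, so these genes were not matched to the dehydrins in brightness. The distance of COR47 from the control median, 0.93, was no larger than this spread, which leaves out the error of sampling, amplification and plants.

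Genes bright on the mean of both arrays mostly read lower in trichome as deposited. The 20 genes with a mean log2 signal from 8 to 12, which include both dehydrin genes, had a median difference of -4.31. COR47 was close to that median, with 11 genes below it and 8 above it. AT1G54410 was near the upper end of this band, with 17 genes below it and 2 above it. The genes above it were AT5G62350, with a difference of -1.55, and the extensin-like gene AT1G23720, with 1.40. The 13 nuclear genes of the band had a median of -4.04 and the 7 plastid genes one of -4.62. The band leaves out AT3G31955, AT4G08410, AT2G12190 and AT2G38870, whose mean level was below 8. They were among the 20 brightest genes in trichome and read higher there, by 0.81 to 4.36. Most of the other genes of that top 20 read lower in trichome.

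**Figure D4:**
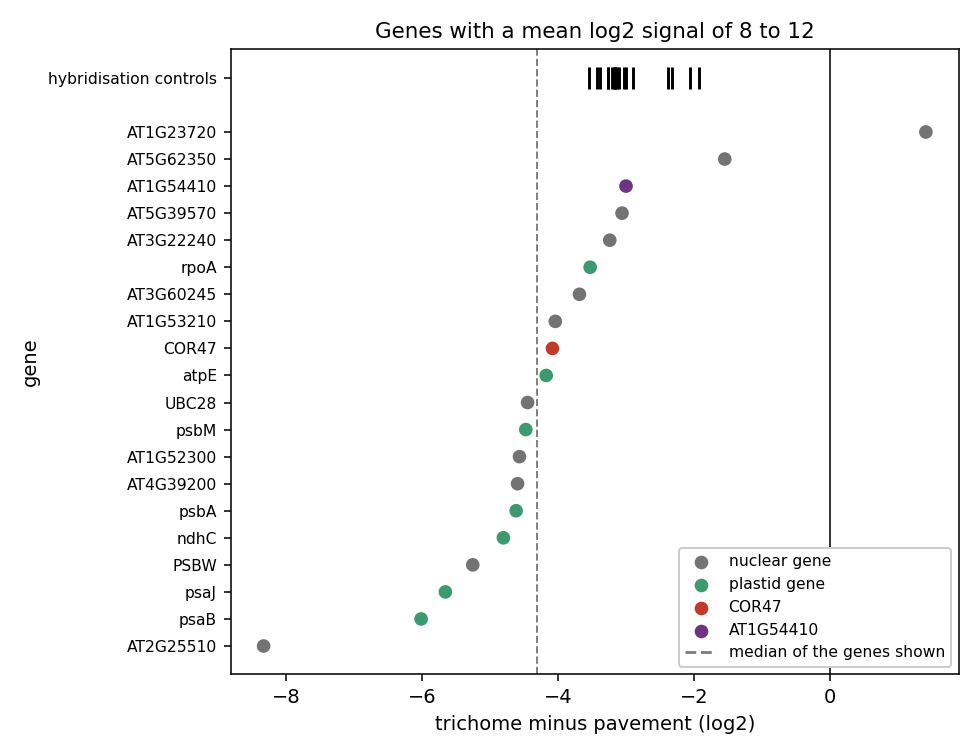
Difference, trichome minus pavement (log2), of the 20 genes with a mean log2 signal of 8 to 12, in order, and of the 18 hybridisation controls (vertical marks at the top). The dashed line is the median of the 20 genes, -4.31; COR47 lies next to it, and AT1G54410 lies among the controls.

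As deposited, the difference between the arrays was larger for COR47 than for AT1G54410. The difference of AT1G54410 was 1.08 above that of COR47, against an expected SD of 1.35 for the gap between 2 genes, taken from the spread between probe sets. That spread comes from genes not matched to the dehydrins in brightness. On these values the contrast between the dehydrins was not set apart from it. With a lowess correction for mean level the gap was 2.87.

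The genes closest in pattern were found by the Euclidean distance over both log2 signals, which rests on 2 arrays. Closest to COR47 was AT1G53210, a sodium and calcium exchanger family gene, with signals of 6.30 and 10.34 and a distance of 0.11. AT3G60245 followed at 0.29 and AT4G39200 at 0.36; both encode ribosomal proteins. The plastid gene psbM was at 0.52 and the ribosomal protein gene AT1G52300 at 0.68. COR47 thus had several genes with nearly the same readings.

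AT1G54410 had none as near. Its closest gene was rpoA, the alpha subunit of the plastid RNA polymerase, at a distance of 1.36, with signals of 7.58 and 11.11. Next were atpE at 1.50, UBC28 at 1.60, ndhC at 1.66 and AT5G39570 at 1.78. At its level of brightness there were few genes to be near.

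Of the other dehydrins 4 were measured, and 3 of these were at background on both arrays. The Arabidopsis dehydrin family was listed with 10 members, of which 6 had a probe set of their own. ERD10, the next gene to COR47 in RefSeq's annotation of TAIR10.1 and also an acidic dehydrin, was not analysed here, and neither were ERD14, RAB18 and XERO1. LTI30, also called XERO2, a dehydrin of cold and abscisic acid responses that binds membranes, gave 4.52 in pavement sap, while its trichome reading of 2.14 was at background. Since a reading at background is only a bound, LTI30 was at least 3.84-fold higher in pavement as deposited. Relative to the hybridisation controls its difference was at most 1.21, so its direction there is not settled. AT2G21490 read 1.72 in trichome and 1.76 in pavement, AT4G38410 read 2.11 and 1.69, and AT4G39130 read 2.01 and 1.51. These 3 dehydrins were at background on both arrays.

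Of the 6 measured dehydrins, 3 were above the ceiling on at least 1 array, where 19.6% of all genes were. These include COR47 and AT1G54410, which were chosen on these signals, so nothing is read from the count. Among the other 4, LTI30 alone passed the ceiling, on the pavement array. AT1G54410 and COR47 were above the ceiling on the trichome array, where the other 4 read between 1.72 and 2.14. Over the 6 genes the median difference was -1.21, and it was -0.97 when each background reading was set to the ceiling. Over the 4 genes other than COR47 and AT1G54410 it was 0.19, from readings that were at background except that of LTI30 in pavement. A 2-fold higher signal in pavement was seen for 3 of the 6, AT1G54410 and COR47 among them, and in trichome for none, against 8.31% and 1.19% of the 8168 genes. The count was 1 in pavement and 2 in trichome with lowess, and 1 and 0 with quantile normalization. COR47 and AT1G54410 were chosen with this contrast known, so nothing is read from it.

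The neighbours on the chromosome gave little signal. Beside COR47, AT1G20430 read 1.98 in trichome and 1.88 in pavement, at background, and the gene beyond it, AT1G20410, read 2.96 and 2.98. Beside AT1G54410, AT1G54420 read 1.82 and 1.61, and AT1G54440 read 1.87 and 1.82, all at background. The bright readings were therefore not shared by the measured genes next to either dehydrin gene.

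The remaining LEA proteins, a mixed class of seed and stress proteins that are not dehydrins, gave little signal in either sap. Of 31 listed genes 20 were measured, and 18 of these were at background on both arrays; 2 were above the ceiling on at least 1 array, where 19.6% of all genes were. AT2G44060 read 2.995 in trichome and 3.33 in pavement, and AT2G46140 read 2.91 and 2.86. None of the 20 differed by 2-fold, and 8 of them reached the floor of 2.05. Their differences ran from -0.41 to 0.56 with a median of -0.09. DI21 and LEA4-5, which belong to the drought-induced LEA genes, were at background, with 2.14 and 1.80 in trichome and 2.39 and 1.70 in pavement.

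Of 19 further targets of the cold response, 2 were measured, and both read higher in pavement as deposited. Both passed 2-fold as deposited, against 8.31% of the 8168 genes. With lowess, quantile normalization or background raised to the top Bacillus reading, 1 did. COR15A, a chloroplast protein that protects membranes during freezing, read 7.27 in pavement and 2.58 in trichome, just under the ceiling. As deposited, COR15A was at least 25.7-fold higher in pavement. Its tandem relative COR15B gave 3.46 in pavement sap against a background reading of 2.23 in trichome sap. COR15B was thus higher in pavement by at least 1.84-fold as deposited. The difference of COR15A was at most -4.69, a bound, against -4.08 for COR47. COR15A minus COR47 was thus at most -0.60 as deposited, and how far beyond that is not known. The expected SD for the gap between 2 genes was 1.35. COR47 was thus bright in both saps, whereas COR15A was well above background in pavement sap alone. The trichome readings of COR15A and COR15B were above the second highest Bacillus reading, 2.21, so their place at background rests on the top control reading. A probe set paired with 2 genes of this list, and given to neither, read 5.995 in trichome and 10.02 in pavement.

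The regulators upstream of these genes were not analysed here, which does not mean that the array lacks probes for them. No probe set was paired alone with any of 15 listed cold-response regulators, 19 drought and abscisic acid targets, or 29 receptors, phosphatases, kinases, transcription factors and metabolic enzymes of abscisic acid. Of 16 genes of metal binding and transport, chosen because AT1G54410 binds metal ions, 1 was measured: the metallothionein MT1C was at background, with 2.17 in trichome and 2.41 in pavement.

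The sign of the difference depended on how the arrays were put on a common scale. Forcing both arrays onto the same distribution by quantile normalization gave -0.07 for COR47 and 0.79 for AT1G54410, so that neither was 2-fold apart; by this scaling 4.54% of the 8168 genes were at least 2-fold higher in pavement and 3.95% in trichome. Centring on the hybridisation controls gave -0.93 and 0.15, and raised the median of all genes by 3.15. A lowess correction for mean level gave 1.62 and 4.49. The lowess curve is held by few genes at this brightness: it passed through -5.70 at the level of COR47 and -7.49 at that of AT1G54410, below the median of -4.31 of the genes from 8 to 12. For COR15A, whose trichome reading was at background, the difference relative to the controls was at most -1.54.

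Relative to the controls LTI30 and COR15B, also at background in trichome, have only bounds, at most 1.21 and 2.27. Their directions there are not settled. AT1G54410 was above COR47 under each of these scalings, though centring on the controls cannot change the gap between them. The gap was 1.08 as deposited and 0.85 with quantile normalization, both below the expected SD of 1.35. It was 2.87 with lowess, whose curve few genes hold at this brightness.

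**Figure D5:**
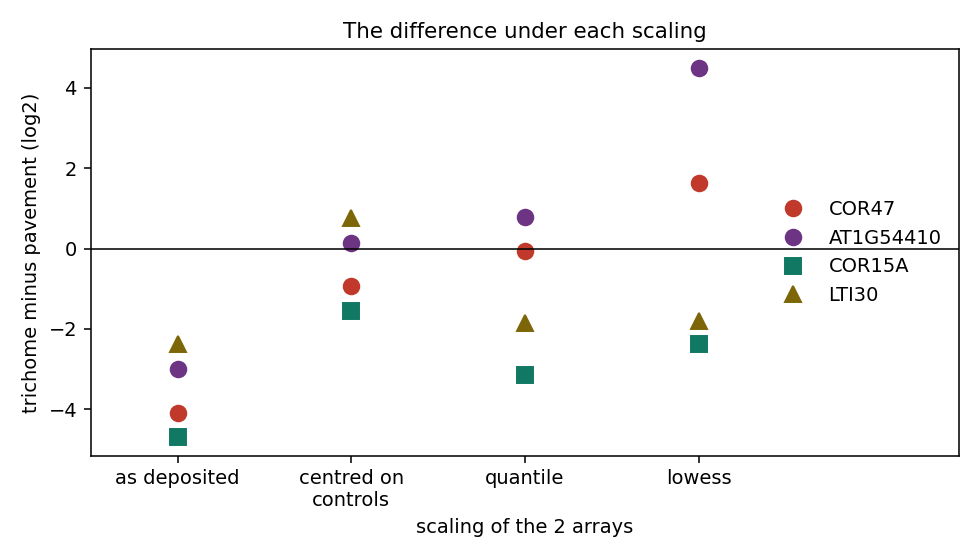
Difference, trichome minus pavement (log2), of COR47, AT1G54410, COR15A and LTI30 as deposited, centred on the hybridisation controls, after quantile normalization and after lowess correction. COR47 moves from -4.08 to 1.62 and AT1G54410 from -3.00 to 4.49, while the points of COR15A stay below 0; the trichome readings of LTI30 and COR15A are at background, so their points are not exact differences.

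Of the markers of other cell types, those of mesophyll were higher on the pavement array and those of the guard cell lineage were not. The 4 measured mesophyll markers (LHCB4.1 and LHCB4.2 of the light-harvesting antenna, RCA or rubisco activase, and PSAE-1 of photosystem I) of 15 listed read 8.85 to 9.42 in pavement and 3.67 to 3.97 in trichome, and their summed linear signal was 2211 and 56.8. Their median difference, -5.21, was below those of COR47 and AT1G54410. The 3 guard cell lineage factors measured of 8, MUTE, FMA and SPCH, read 2.62 to 2.96 in trichome and were at background in pavement, with sums of 21.2 and 12.1. Of the 4 measured trichome markers of 14, SIM read 2.79 in trichome and the others were at background, with sums of 18.1 in trichome and 15.6 in pavement. The markers of vasculature (SWEET11, 1 of 5) and epidermis (CR4, 1 of 7) were at background on both arrays, so the measured markers bore little on either cell type label. The part of mesophyll RNA in the pavement readings of the dehydrin genes was not tested.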

How the data were processed

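The deposited table holds 1 signal per probe set and array for 22810 probe sets, which the authors computed by RMA, per the submitters' processing notes. The deposited values were taken as log2 from their range, 1.28 to 14.2; no source used here gives the log base, the RMA version or the set of arrays normalized jointly, and the table has no detection calls. The platform annotation paired 13513 probe sets with 1 gene, 503 with several and did not list 8794. Of the 13513, 13436 were named through the RefSeq table of assembly TAIR10.1. No coordinates are printed, as the build behind the probes is not stated.

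Probe sets of a gene were averaged, and ranks, differences and distances were computed with Python 3.11.15, numpy 2.4.6, pandas 2.3.3 and statsmodels 0.14.6 (lowess span 0.2). No p-value was computed, since each group has 1 array. A gene was counted as apart at a difference of 1 (2-fold) with its higher value at or above 2.05. The code for calls and ranks was tested on simulated data with noise of SD 0.2 and no difference in scale between the arrays. That test does not bear on the precision of these arrays. The genes named were the 2 dehydrin genes, up to 6 members of each list above background in order of signal, the 5 nearest genes and the neighbours in rank. Members at background, neighbours on the chromosome and the genes of the top 20 and of the 8 to 12 band were named beside these after their values were seen. The genes and the 12 lists (188 entries) were chosen with earlier results of these data known.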

Additional observations from a re-analysis of the deposited data

Results flagged for a closer look

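The hybridisation controls, which are outside the gene comparison, differed between the arrays by a median of -3.15 (trichome minus pavement, log2), above the readings of the Bacillus controls on both arrays. Their use above was as a scale between the arrays. They were singled out because they carry signal but are not among the genes compared. A probe set paired with 2 genes of the cold-response target list, and therefore given to neither, was singled out for the same reason. Its signal was 5.995 in trichome sap and 10.02 in pavement sap, which differ by -4.03.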

How the results depend on the processing

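No paired analysis was possible because each group has 1 array and the result comes from no test; for the same reason no replicate could be left out. The difference of COR47 (-4.08 as deposited) was -0.93 when centred on the hybridisation controls, -0.068 with quantile normalization and 1.62 with lowess. That of AT1G54410 (-3.00) was 0.15, 0.79 and 4.49. Raising background readings to either Bacillus reading left both differences unchanged by construction, since both genes read far above it on both arrays. Centring on the median of genes above background on both arrays, an alternative chosen after seeing the data, gave -3.71 and -2.63. That centring shifts every gene by the same amount, which is smaller than the probe set spread, so neither setting is a check of these differences. The gap between the pair (1.08) was 2.87 with lowess. Among all plant probe sets, COR47 ranked 50 in trichome and 42 in pavement and AT1G54410 5 and 13, by construction of a longer list. Among nuclear genes, also added later, the pavement ranks were 9 and 3. Genes higher in pavement by 2-fold (679) were 332 with lowess, 371 with quantile normalization and 86 centred on the controls. Genes higher in trichome (97) were 278, 323 and 7881, and 43 with background raised. Genes higher in trichome were 12.5% of calls as deposited, against 45.6% with lowess and 46.5% with quantile normalization and 98.9% centred on the controls. Centring on the controls adds 3.15 to the difference of every gene. The 7881 therefore include many genes at background by construction, as 2624 genes were above the ceiling on either array. Why the other scalings differed was not tested.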
